A study of Mus musculus with 745 samples.

Results

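The expression of 9 genes that set vascular tone was examined in single cells sorted as endothelium from the brains of 3-month-old mice. The genes were the nitric oxide synthases Nos1 and Nos3, the endothelins Edn1 and Edn3, the endothelin receptor Ednrb, the endothelin-processing protease Ece1, the sphingosine 1-phosphate receptor S1pr1, the prostacyclin synthase Ptgis and the potassium channel Kcnj2. They were chosen by symbol, and all 9 were found among the 20607 gene symbols of the count table. The table held 745 cells from primary tissue that had been dissociated with a neural dissociation kit and sorted by flow cytometry. All cells were of the same age and no treatment, genotype or strain was named for any of them. The cell titles gave 3 sets, called Young1, Young2 and AY_Y3, with 30.2%, 34.6% and 35.2% of the cells. What a set stands for (1 animal, several pooled, or a sort or plate) is not stated. The test used below weighs a difference between groups of cells against variation across sets and not across cells. That variation is estimated from all tested groups together, with information shared between genes. Because the nature of a set is unknown, such variation may be technical.

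Nitric oxide is made from arginine by nitric oxide synthases; in most vessels the endothelial form, Nos3, is the main source, while Nos1 is known as the neuronal form. It diffuses into smooth muscle and relaxes it. Endothelins are peptides cut from larger precursors by Ece1; they contract smooth muscle through its own receptors, and act on the endothelium through Ednrb, which is coupled to nitric oxide and prostacyclin release. Prostacyclin, the product of Ptgis, relaxes smooth muscle, S1pr1 supports endothelial junctions and Nos3 activity in response to flow, and Kcnj2 carries an inwardly rectifying potassium current that spreads hyperpolarisation along brain capillaries.

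The members lie on separate stretches of the GRCm38 genome: Nos1 at chr5:117781032-117958840, Nos3 at chr5:24364810-24384474, Edn1 at chr13:42301476-42307990, Edn3 at chr2:174760619-174784042 and Ece1 at chr4:137862237-137965229, all on the plus strand with Kcnj2 at chr11:111066164-111076821. Ednrb at chr14:103814625-103844402, S1pr1 at chr3:115710433-115715072 and Ptgis at chr2:167191805-167240604 lie on the minus strand. Counts were given per gene symbol, so no value below can be assigned to a single exon or UTR. Exons of Nos3 overlap Atg9b and Gm15587 on the other strand, and those of Ptgis overlap 1110018N20Rik on the other strand. Whether the counting used strand is not given in the sources used here, so reads of these overlaps cannot be assigned to either gene.

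The promoters of the 2 endothelins are shown because both genes were higher in cells with arterial markers, as described below. Each sequence is the 250 bases before the RefSeq start on GRCm38.p6, on the plus strand, 5′ to 3′. Capitals mark matches to short cores, searched on both strands. The core that KLF factors are known to bind was searched as CACCC, which reads GGGTG when it lies on the minus strand. The core of ETS sites was searched as GGAAG, whose reverse complement is CTTCC. The first window is chr13:42301226-42301475 and the second is chr2:174760369-174760618.
Edn1: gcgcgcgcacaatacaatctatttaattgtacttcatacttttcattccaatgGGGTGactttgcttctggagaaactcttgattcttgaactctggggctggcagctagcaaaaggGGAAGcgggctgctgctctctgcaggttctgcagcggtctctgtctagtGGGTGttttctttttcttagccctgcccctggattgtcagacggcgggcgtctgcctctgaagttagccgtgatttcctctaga
Edn3: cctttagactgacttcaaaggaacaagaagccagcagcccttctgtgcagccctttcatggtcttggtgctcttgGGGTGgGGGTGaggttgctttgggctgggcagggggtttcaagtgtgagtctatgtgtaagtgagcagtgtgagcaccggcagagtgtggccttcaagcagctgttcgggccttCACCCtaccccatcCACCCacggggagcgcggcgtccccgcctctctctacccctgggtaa
The Edn1 window holds the KLF core at -197 and -84 and the ETS core at -133, counted to the first base of each match from the start site. The Edn3 window holds the KLF core at -175, -169, -61 and -47 and no ETS core. These letters are common: 52.01% of the 32851 promoter windows of the same length in the table hold the KLF core and 64.07% hold the ETS core. The TATA box TATAAA, the GATA core AGATAA and the AP-1 site TGANTCA, searched on both strands, were in neither window and are held by 12.37%, 9.988% and 6.749% of windows. A match is a stretch of letters and not a bound site. The table had starts for 6 of the 9 members; the start listed for Nos1 lies inside the gene and is not shown.

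Before the members were examined, cells that carried 2000 CPM or more of markers of another cell type were left out, where CPM is a gene's count divided by the total of its cell and scaled to a total of 1000000: 77 for markers of pericytes, 17 of astrocytes, 15 of oligodendrocytes and 3 of smooth muscle. This left 633 endothelial cells, 31.1% of them from Young1, 33.3% from Young2 and 35.5% from AY_Y3. A cell had between 52819 and 2421434 counts, with medians of 757949, 713031 and 411397 in the sets in the same order, so AY_Y3 was the shallowest. For that reason shares of cells were also computed after thinning each cell to 50000 counts. Cells were placed on the arteriovenous axis by 4 pairs of marker genes, a pair being positive from 100 summed CPM. The 54 large-artery cells were positive for the arterial pair (Bmx, Gkn3) and the large-artery pair (Fbln5, Mgp), and the 25 arterial cells for the arterial pair alone of these. The 110 venous cells were positive for the venous pair (Nr2f2, Il1r1) and negative for the arterial pair. They could be positive for the large-artery pair, which had a mean of 111.6 CPM and a median of 0 CPM in them. The 372 capillary cells were positive for the capillary pair (Cxcl12, Rgcc) only. A further 54 cells were positive for the large-artery pair without the arterial or venous pair; they are called large-artery-only below and were described without a test. A class is a range of marker levels and not a cell type: 28, 9, 30 and 36 endothelial cells lay between 50 and 200 CPM for the arterial, large-artery, capillary and venous pair. Young1 had 2 arterial cells, too few to enter a mean or a test, so arterial values rest on Young2 and AY_Y3. No doublet caller was run. Median depth was 617880 counts in large-artery, 662096 in arterial, 579336 in capillary and 660942 in venous cells. After thinning to 50000 counts, the median number of genes found was 2049.5, 1887, 1547 and 2201.5 in the same order. Capillary cells thus had the fewest genes of these classes at equal depth. The part of this in the shares by class was not tested.

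Across all endothelial cells the members fell into common, intermediate and rare genes, where a cell counts as having a gene from 1 read. S1pr1 was found in 629 of 633 cells (99.4%) at 1358 ± 55.4 CPM (SD, n = 3 sets), and Ece1 in 553 cells (87.4%, exact 95% interval 84.5% to 89.9%) at 879 ± 125.6 CPM. Nos3 was found in 408 cells (64.5%, 60.6% to 68.2%) at 236.1 ± 20.5 CPM. Edn1 was found in 309 cells (48.8%, 44.9% to 52.8%) at 342 ± 75.4 CPM, and Edn3 in 29.4% of cells (25.9% to 33.1%) at 181.01 ± 38.2 CPM. Nos1 was rarer still, with 79 cells (12.5%, 10.01% to 15.3%) and 63.8 ± 27.5 CPM. Kcnj2 was in 37 cells (5.85%, 4.15% to 7.97%), Ptgis in 25 (3.95%, 2.57% to 5.78%) and Ednrb in 11 (1.74%, 0.87% to 3.09%). Intervals for shares are Clopper-Pearson and cover counting error only. Thinning to 50000 counts kept the order of the shares except that Kcnj2 and Ptgis tied at 3.95%, with Nos3 at 57.03%, Edn1 at 40.9%, Edn3 at 27.3% and Nos1 at 10.7%.

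The sets had like shares of the common members and differed more for the rare ones. Nos3 was found in 62.4% of Young1, 63.98% of Young2 and 66.7% of AY_Y3 cells. Edn1 was in 50.3%, 46.9% and 49.3%. The share with Edn3 was 23.4%, 28.4% and 35.6%, and that with Nos1 was 8.12%, 15.6% and 13.3%. Young1 had the lowest share with Nos1 and also the fewest cells positive for the arterial pair, 11 against 36 in each of the other sets; the part of this in the difference was not tested. Per kilobase of exon in GENCODE M21, the only scale on which levels of different genes are compared here, S1pr1 was at 446 ± 18.2 CPM per kb, Ece1 at 165.9 ± 23.7, Edn1 at 159.7 ± 35.3, Nos3 at 57.1 ± 4.97 and Edn3 at 44.01 ± 9.29. Ptgis was at 9.30 ± 1.89, Nos1 at 5.72 ± 2.47, Ednrb at 2.04 ± 1.46 and Kcnj2 at 1.69 ± 1.26 CPM per kb (all SD, n = 3 sets). These lengths need not be those of the annotation used for counting, which is not given in the sources used here. The neighbours Ece1 and Edn1, Nos3 and Edn3, Ptgis and Nos1, Nos1 and Ednrb, and Ednrb and Kcnj2 differed by less than the sum of their SDs. Nos1, a long gene read in few cells, was thus far below Nos3 per kilobase when averaged over all endothelial cells.

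Nos1 was concentrated in cells with large-artery markers. It was found in 38 of 54 large-artery cells (70.4%, 56.4% to 82.02%) and 23 of 54 large-artery-only cells (42.6%, 29.2% to 56.8%). It was found in 5 of 25 arterial cells (20%), 6 of 372 capillary cells (1.61%, 0.594% to 3.48%) and 4 of 110 venous cells (3.64%, 0.9995% to 9.05%). The 6 capillary cells with Nos1 had a median of 90.1 CPM. The wells left out for pericyte markers had Nos1 in 2 of 77 (2.60%, 0.316% to 9.07%). They also had Nos3 in 70.1%, so they hold endothelial transcripts and give no floor for Nos1. Whether the few capillary reads are expression was not tested. Mean Nos1 in large-artery cells was 384 CPM in Young1, 423 in Young2 and 349 in AY_Y3. In capillary cells it was 3.12, 2.99 and 0.715 CPM, and in venous cells 33.3, 7.58 and 0 CPM, where 0 of 38 venous AY_Y3 cells allows a share of up to 7.89%. Every set's large-artery mean lay far above every capillary and venous mean. Over sets the mean was 385 ± 36.9 CPM in large-artery, 2.27 ± 1.35 CPM in capillary and 13.6 ± 17.5 CPM in venous cells.

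**Figure D1:**
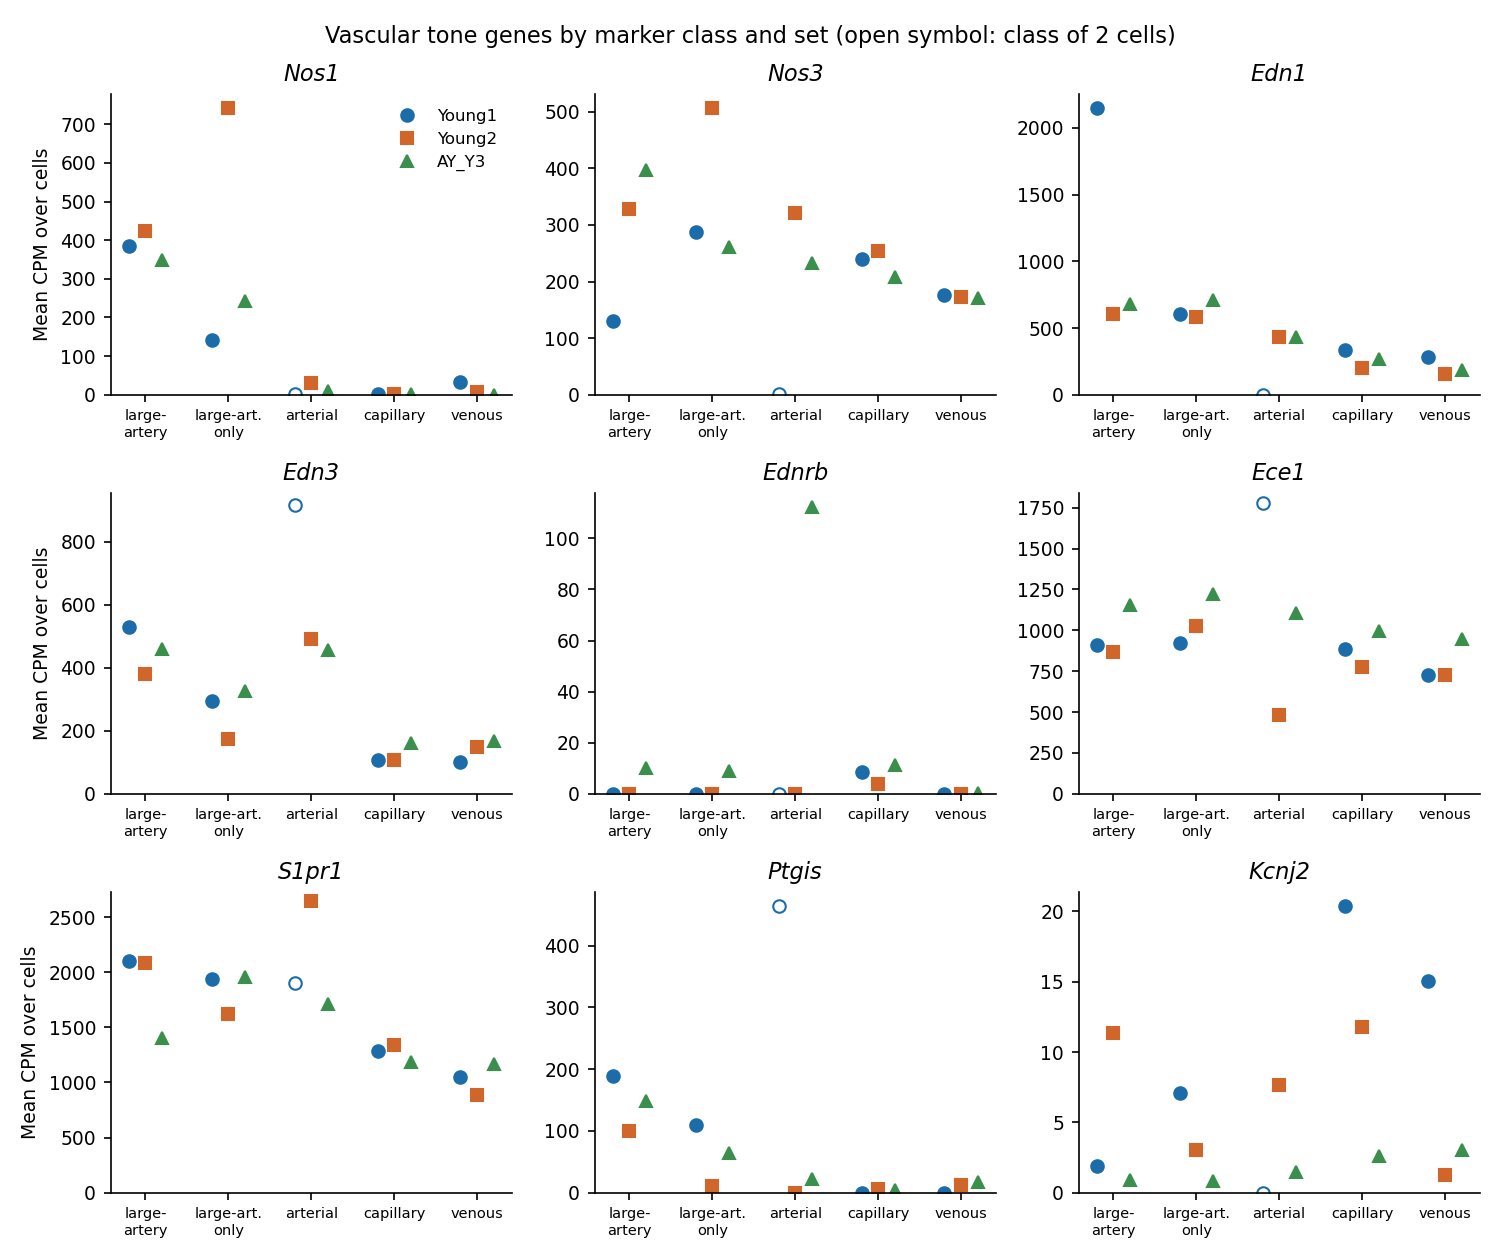
Mean CPM over the cells of a class (y axis, linear from 0) for each of the 9 genes, with 5 marker classes on the x axis and a symbol for each of 3 sets. Nos1 is between 349 and 423 CPM in large-artery cells of all 3 sets and at or below 33.3 CPM in capillary and venous cells, while S1pr1, Ece1 and Nos3 are present in all classes; open symbols mark the class with 2 cells.

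The sums of counts per set and class were then tested in edgeR's quasi-likelihood model with the set as a block, over 8767 genes and 11 sums. The SE given for edgeR was derived as the size of the log2 fold change divided by the square root of the test's F statistic. In that fit the log2 fold change of Nos1 was 7.74 ± 1.56 (SE) for large-artery against capillary (adjusted p = 0.202) and 7.29 ± 1.58 against venous (adjusted p = 0.132). Neither passed the threshold of 0.05, although Nos1 was higher in 3 of 3 sets. The call turned on the model: DESeq2 gave 7.79 ± 0.93 with an adjusted p of 3.31e-14 for large-artery against capillary, and limma on the mean log2(CPM + 1) gave 5.53 ± 0.44 with 8.98e-06. In edgeR, thinned counts gave 7.44 with an adjusted p of 0.0181. Over the 13 alternatives the fold ranged from 5.53 to 10.06 on the log2 scale and the adjusted p reached 0.632, with 3 of 13 past the threshold. Nos1 was also higher in large-artery than in arterial cells, where Young2 had 30.8 and AY_Y3 10.01 CPM, but edgeR's log2 fold change of 4.60 ± 1.61 had an adjusted p of 0.349.

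Nos1 was then set against each pair. It was found in 54.2% of cells positive for the arterial pair and 52.1% of those positive for the large-artery pair, with 54.5% and 38.2% in Young1. Of the 79 Nos1 cells, 63 (79.7%) were positive for the large-artery pair and 69 (87.3%) for that pair or the arterial pair. Nos1 was found in 39 of 56 cells positive for both pairs (69.6%), in 24 of 65 with the large-artery pair and not the arterial pair (36.9%), in 6 of 27 with the arterial pair and not the large-artery pair (22.2%) and in 10 of 485 with neither (2.06%). By set, cells with both pairs had Nos1 in 62.5% (Young1), 73.1% (Young2) and 68.2% (AY_Y3), and cells with neither in 1.25%, 3.77% and 1.20%. These ranges were far apart. The large-artery pair without the arterial pair gave 30.8%, 43.8% and 39.1%. The arterial pair without the large-artery pair gave 33.3%, 10% and 28.6%, from 3, 10 and 14 cells, a range that overlaps the one before, so the 2 groups are not separated in every set.

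**Figure D2:**
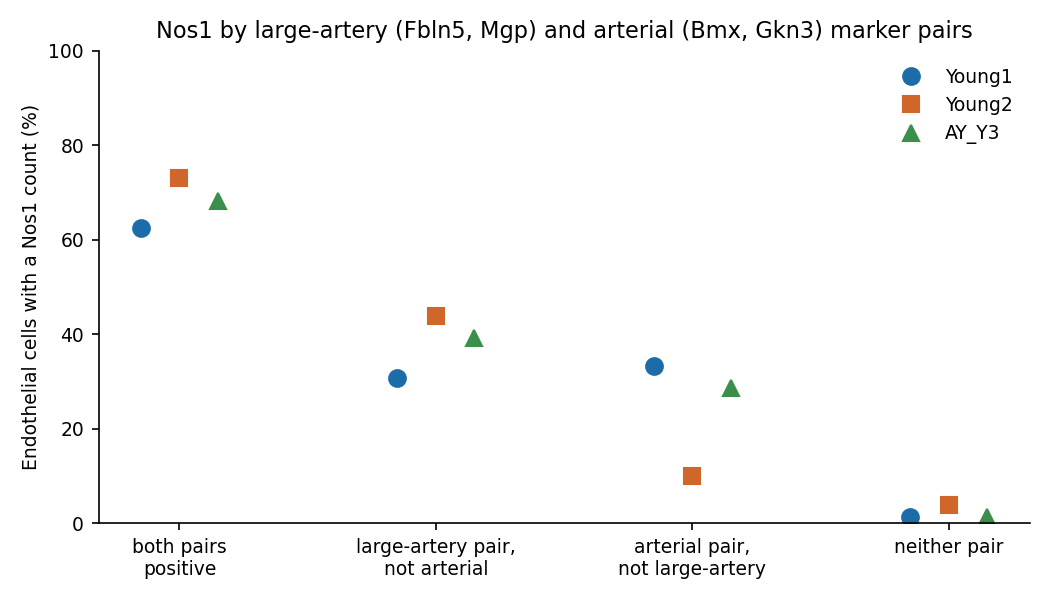
Share of endothelial cells with a Nos1 count (y axis, percent) in cells positive for both pairs, the large-artery pair (Fbln5, Mgp) and not the arterial, the arterial pair (Bmx, Gkn3) and not the large-artery, or neither (x axis), with a symbol for each of 3 sets. Shares are 62.5% to 73.1% where both pairs are positive and 1.20% to 3.77% where neither is.

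Nos1 was also more common at higher levels of the large-artery pair. Where the pair had no count, 2.79% of cells had Nos1. Where it was present but below the median of the cells that had it, 29.9% did, and above that median 69.2% did. The steps ran the same way in all 3 sets, with 1.24%, 22.2% and 55.6% in Young1, 3.66%, 37.5% and 78.3% in Young2 and 3.41%, 28% and 70.8% in AY_Y3. Along the arterial pair the shares were 4.31%, 32.4% and 47.2%. Along the capillary pair the order was opposite, with 30.6%, 18.7% and 4.03%. Among single marker genes, Mgp, an inhibitor of calcification, was found in 77.2% of Nos1 cells and 11.9% of other endothelial cells. Fbln5, an elastic-fibre protein, was found in 48.1% against 1.62%.

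**Figure D3:**
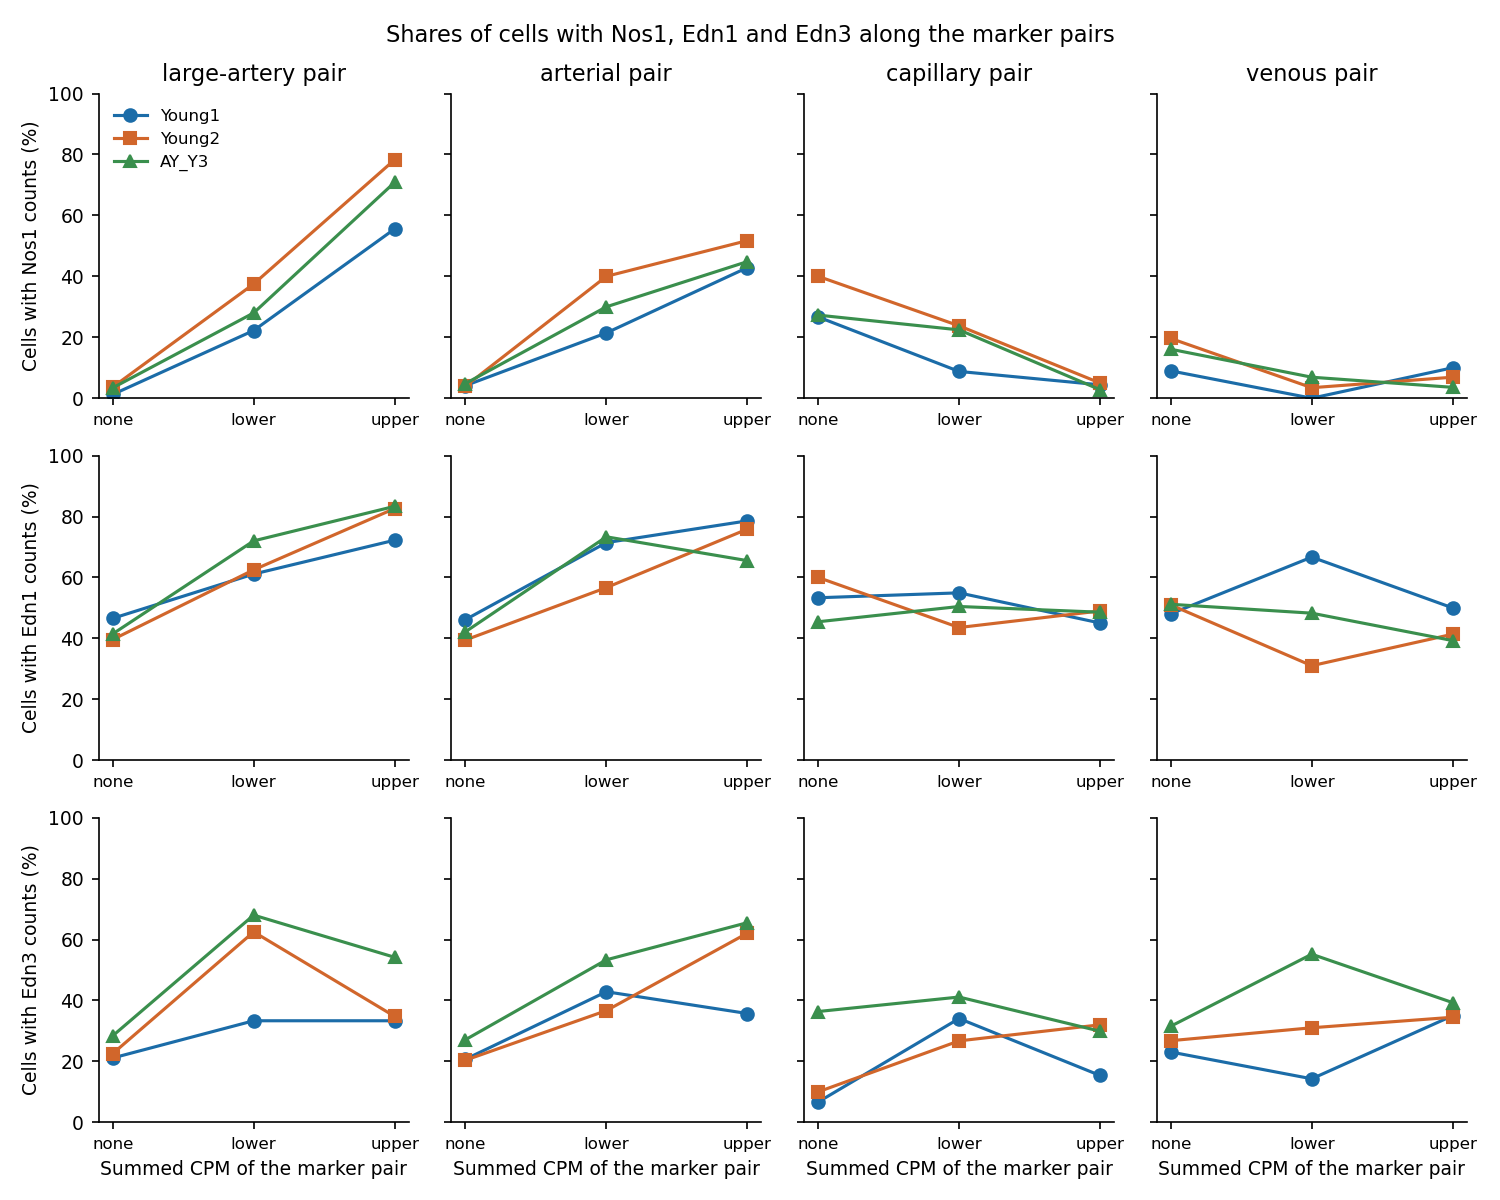
Share of endothelial cells with a count of Nos1, Edn1 or Edn3 (rows, y axis in percent) where a marker pair (columns) has no count, or a summed CPM below (lower) or above (upper) the median of the cells that have it; each line is 1 set. Nos1 goes from 2.79% to 69.2% of cells along the large-artery pair over all sets and from 30.6% to 4.03% along the capillary pair.

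Nos1 cells held few transcripts of neurons, where Nos1 is best known. The neuron list summed to 28.9 CPM in the 79 Nos1 cells and 11.1 CPM in other endothelial cells, with 4 of its 10 markers at 0 and 68 of the 79 cells at 0 for the whole list. The smooth muscle list summed to 150.6 CPM in Nos1 cells against 22.3 CPM, with 3 of 8 markers at 0 and 42 of 79 cells at 0. Over sets, smooth muscle markers ranged from 135.4 to 259.5 CPM in large-artery, from 5.82 to 13.5 CPM in capillary and from 0.0350 to 15.2 CPM in venous cells, with 4 of 8 markers at 0 in large-artery cells. The microglia or macrophage list ranged from 87.9 to 158.7 CPM in large-artery and from 38.3 to 47.8 CPM in capillary cells, again without overlap, with 7 of 9 markers at 0 in large-artery cells. The oligodendrocyte list had a mean over sets of 228.3 CPM in large-artery and 95.6 CPM in capillary cells, with ranges that overlapped and 6 of 10 markers at 0 in large-artery cells. In Nos1 cells these lists were at 92.7 against 57.9 CPM and 176.1 against 98.9 CPM in other endothelial cells. The smooth muscle and microglia or macrophage markers were thus higher in large-artery than in capillary cells. Arterial cells, with the 2 of Young1 counted, had means over sets of 138.9 CPM (0.904 to 348.9) and 152.03 CPM (46.2 to 356.1) for these lists. Large-artery-only cells had 110.04 and 86.7 CPM, so the markers were not particular to the large-artery class. The part of these markers in the results for that class was not tested beyond the next values. With wells left out already from 500 CPM of other cells' markers, edgeR's log2 fold changes for large-artery against capillary cells were 7.81 for Nos1, 1.85 for Edn1 and 1.35 for Edn3, none of them called. Pericyte markers were lower in Nos1 cells, at 60.05 against 153.5 CPM, and the endothelial list was at 27409 against 30300.3 CPM.

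Nos1 and Nos3 were read together in most Nos1 cells. Both were found in 68 cells, Nos1 alone in 11, Nos3 alone in 340 and neither in the rest. Nos3 was thus found in 86.1% of cells with Nos1 and 61.4% of cells without it. In Young1 the shares were 81.3% and 60.8%, in Young2 84.8% and 60.1%, and in AY_Y3 90% and 63.1%, the same order in each set. After thinning they were 66.7% and 52.4%, 79.3% and 53.3%, and 88.9% and 56.6%. Within the large-artery class, Nos3 was in 34 of 38 Nos1 cells (89.5%) and 11 of 16 others (68.8%). The level of Nos3 did not follow one direction: its mean was 160.3 CPM with and 229.7 CPM without Nos1 in Young1, but 356 and 241.9 in Young2 and 324 and 209.1 in AY_Y3. Cells of 1 set share their source, so these shares are given with no test.

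Nos1 cells also carried Edn1 more often. Edn1 was found in 75.9% of cells with Nos1 and 44.9% of cells without it, or 67.6% and 37.7% after thinning. By set the shares were 81.3% and 47.5% in Young1, 75.8% and 41.6% in Young2 and 73.3% and 45.6% in AY_Y3. In the large-artery class alone, the level of Edn1 did not follow one direction. Its mean with and without Nos1 was 2041 and 2329 CPM in Young1, 665 and 411 in Young2, and 663 and 721 in AY_Y3. Edn3 did not behave alike in the sets: it was in 12.5% of Nos1 cells and 24.3% of others in Young1, but 39.4% and 26.4% in Young2 and 56.7% and 32.3% in AY_Y3. Young1 had 16 Nos1 cells. Within the large-artery class the order was that of Young1 in all 3 sets: Edn3 was in 1 of 5 Nos1 cells and 2 of 3 others in Young1, 6 of 18 and 5 of 6 in Young2, and 9 of 15 and 5 of 7 in AY_Y3, or 42.1% and 75% in all. After thinning, AY_Y3 had 64.3% and 62.5%, the opposite order. Edn1 was found in 64.5% of cells with Edn3 and 42.3% of cells without it. Most Ptgis cells also had Nos1: 18 of the 25 Ptgis cells had Nos1, and Ptgis was in 22.8% of Nos1 cells against 1.26% of others.

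**Figure D4:**
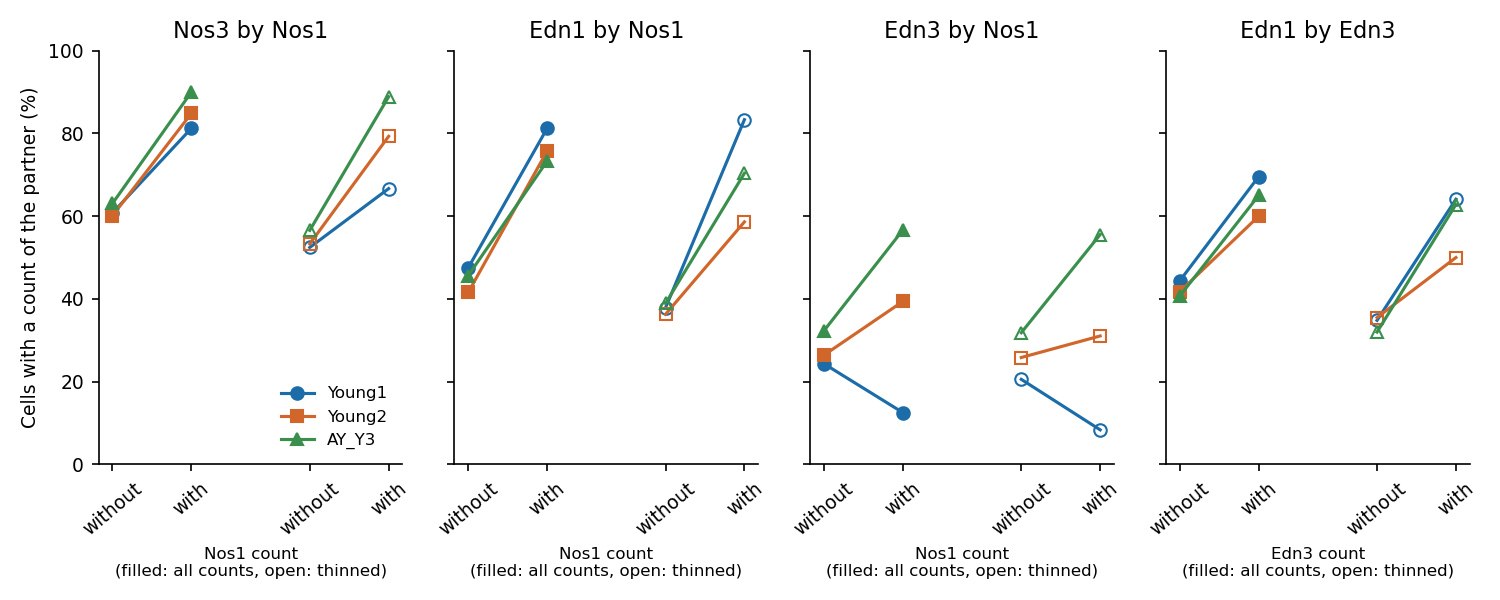
Share of endothelial cells with a count of the partner gene (y axis, percent) in cells without and with a count of the gene named on the x axis, for Nos3, Edn1 and Edn3 by Nos1 and Edn1 by Edn3; each line is 1 of 3 sets, filled symbols use all counts and open symbols counts thinned to 50000 per cell. All lines go up for Nos3 and Edn1 by Nos1, while for Edn3 by Nos1 Young1 goes down from 24.3% to 12.5% and the other sets go up.

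Nos3 itself was spread over all classes. Large-artery cells had 129.8 CPM in Young1, 328 in Young2 and 397 in AY_Y3, and capillary cells 239.9, 254.4 and 207.2 CPM, so the groups overlapped and Young1 ran against the others. edgeR gave a log2 fold change of 0.21 ± 0.46 for large-artery against capillary (adjusted p = 0.999), whose error leaves room for changes in either direction. Its direction turned without Young2 (-0.10) or without AY_Y3 (-0.09). Venous means were between 170.1 and 175.8 CPM in the 3 sets, below every capillary mean, with a log2 fold change of -0.27 ± 0.45 that was not called. Along the large-artery pair, the share of cells with Nos3 was 60.9%, 76.1% and 80%, a far smaller span than that of Nos1. Of the wells left out for pericyte markers, 70.1% had Nos3 and 49.4% had Edn1, beside 64.5% and 48.8% of all endothelial cells.

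Edn1, whose peptide is a potent vasoconstrictor, was most common in large-artery cells. It was found in 48 of 54 of them (88.9%, 77.4% to 95.8%), in 43.5% of the 372 capillary cells and in 47 of 110 venous cells (42.7%). Large-artery means were 2149 CPM in Young1 (8 cells), 602 in Young2 and 681 in AY_Y3. Capillary means were 332, 197.5 and 268 CPM and venous means 283, 154.1 and 182.8 CPM, all below the lowest large-artery value. Large-artery-only cells had 605, 579 and 709 CPM, below the large-artery mean in Young1 and Young2 and above it in AY_Y3. The mean of sets in large-artery cells, 1144 ± 871 CPM, was 4.31-fold the capillary and 5.54-fold the venous mean, with Young1 making up most of its spread. edgeR gave log2 fold changes of 2.20 ± 0.42 against capillary (adjusted p = 0.168) and 2.51 ± 0.42 against venous cells (adjusted p = 0.0549), neither past the threshold. Without Young1 they were 1.71 and 2.06. In DESeq2 the first had an adjusted p of 3.60e-07 and in limma 4.54e-04, and 4 of the 13 alternatives passed, the largest adjusted p among them being 0.757.

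Edn3, whose peptide acts mainly through Ednrb, differed from Nos1 in that its set means in arterial and large-artery cells overlapped. It was found in 28 of 54 large-artery cells (51.9%, 37.8% to 65.7%) and 15 of 25 arterial cells (60%, 38.7% to 78.9%), and in 79 of 372 capillary (21.2%) and 37 of 110 venous cells (33.6%). Large-artery means were 529, 380.2 and 459 CPM in Young1, Young2 and AY_Y3, and arterial means 490.2 and 456 CPM in the latter 2 sets. Capillary means of 106.4, 105.8 and 162.6 CPM and venous means of 100.8, 147.6 and 166.5 CPM lay below all of these. For large-artery against arterial cells edgeR gave a log2 fold change of 0.55 ± 0.37 (adjusted p = 0.714). This value was not called and changed sign in 3 refits, so equal levels were not shown. Edn3 rose in large-artery against venous cells, with a log2 fold change of 2.38 ± 0.33 and an edgeR adjusted p of 0.0310. It was the one member called in any of the 6 contrasts, in one where 0.399% of the tested genes were called and 0.262% were called higher. That call was lost when any 1 set was left out, with adjusted p of 0.187 without Young1, 0.282 without Young2 and 0.461 without AY_Y3, though the log2 fold change stayed between 1.98 and 2.67. It held in 6 of the 13 alternatives. Against capillary cells the log2 fold change was 2.23 ± 0.32 (edgeR adjusted p = 0.0987), and in arterial cells it was 1.68 ± 0.35 against capillary (0.179) and 1.82 ± 0.35 against venous (0.101).

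The positions of the endothelins on the marker axes were not the same. Along the arterial pair, the share of cells with Edn3 was 22.8%, 44.6% and 58.3%, and its mean was 119.8, 291 and 496 CPM. Along the large-artery pair it was 24.2%, 56.7% and 41.5%, at 140.03, 377 and 311 CPM, so over all sets it was lower above the median than below it. These steps differed between sets: along the arterial pair the shares with Edn3 below and above the median were 42.9% and 35.7% in Young1, but 36.7% and 62.1% in Young2. Over all sets Edn1 was higher at each step along the large-artery pair, with 42.5%, 65.7% and 80% of cells and 241.04, 591 and 843 CPM. The last step in level was not shared by AY_Y3, at 704 CPM below and 686.03 CPM above the median, while Young1 had 683 and 1322 CPM. When arterial and large-artery cells were summed together, a grouping added after the class sizes were seen, Edn1 and Edn3 were both called against venous cells, with edgeR log2 fold changes of 2.27 ± 0.31 (adjusted p = 0.0329) and 2.37 ± 0.35 (adjusted p = 0.0394), where 0.716% of tested genes were called.

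Ece1 and Ednrb are the protease and the receptor of the endothelin path. Ece1 means were 908, 869.5 and 1152 CPM in large-artery, 883, 776 and 995 in capillary and 729, 724 and 945 CPM in venous cells, with ranges that overlapped between classes, although Ece1 was higher in large-artery than in capillary and in venous cells of the same set in 3 of 3 sets. Its log2 fold change in edgeR was 0.37 ± 0.22 for large-artery against capillary (adjusted p = 0.995) and 0.50 ± 0.22 against venous (0.656). Against arterial cells, at 479 CPM in Young2 and 1106 in AY_Y3, edgeR gave 0.81 ± 0.26 with an adjusted p of 0.332, while DESeq2 gave 0.78 ± 0.27 and called it (adjusted p = 0.0335). Ednrb was too rare for the test, which asked for a count in 5% of cells. Its 11 endothelial cells included 4 capillary, 2 large-artery, 2 large-artery-only and 1 arterial cell, and that arterial cell alone held 1460.3 CPM. In the wells left out, it was in 4 of 77 with pericyte markers (5.19%, 1.43% to 12.8%) and 2 of 17 with astrocyte markers (11.8%, 1.46% to 36.4%), shares no lower than in the endothelial cells.

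S1pr1 was present in all 54 large-artery, 25 arterial and 110 venous cells and in 369 of 372 capillary cells, and differed in level. Large-artery means were 2099.5, 2082 and 1406 CPM in Young1, Young2 and AY_Y3, and arterial means 2644 and 1715 CPM in the latter 2 sets. Capillary means were 1283, 1339 and 1182 CPM, and venous means 1045, 890.2 and 1167 CPM. The classes were ordered without overlap, with arterial and large-artery above capillary and capillary above venous, but AY_Y3 came close to an overlap at 2 steps. The large-artery mean of sets, 1862 ± 396 CPM, was 1.47-fold the capillary mean of 1268 ± 79.6 CPM and 1.80-fold the venous mean of 1034 ± 138.7 CPM. edgeR gave log2 fold changes of 0.59 ± 0.21 (adjusted p = 0.604) and 0.95 ± 0.21 (adjusted p = 0.145), and 1.14 ± 0.24 for arterial against venous (adjusted p = 0.110), none of which was called. Along the arterial pair mean S1pr1 was 1227, 1579.7 and 2002 CPM, and along the venous pair 1438, 1117 and 1096 CPM.

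Ptgis and Kcnj2 were rare. Ptgis was found in 11 of 54 large-artery (20.4%, 10.6% to 33.5%) and 6 of 54 large-artery-only cells (11.1%), against 3 of 372 capillary (0.806%) and 2 of 110 venous cells (1.82%). Its large-artery means of 189.5, 100.5 and 148.2 CPM lay above the capillary means of 0, 6.84 and 5.15 CPM and the venous means of 0, 12.8 and 17.7 CPM in every set. No capillary cell of Young1 had it, which allows a share of up to 2.40%. It failed the same filter as Ednrb, so these values stand without a test. Kcnj2 was found in 18 of 372 capillary (4.84%), 5 of 110 venous (4.55%) and 6 of 54 large-artery cells (11.1%, 4.19% to 22.6%). Its capillary means of 20.4, 11.8 and 2.59 CPM overlapped the large-artery means of 1.93, 11.3 and 0.891 CPM. Its edgeR log2 fold change of -1.84 ± 1.77 (adjusted p = 0.999) for large-artery against capillary is not resolved at this depth.

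Of the 7 members that could be tested, 4 (Nos1, Edn1, Edn3 and S1pr1) had set means that did not overlap and were higher in large-artery than in capillary cells. Of all tested genes, 6.17% did so in that contrast. Against venous cells it was the same 4, where 6.33% of tested genes did so. Nos1 was in 70.4% of large-artery and 20% of the 25 arterial cells, but in 1.61% of capillary and 3.64% of venous cells. It thus met the filter of 5% of cells largely through the class where it is high. Its place in the counts of members here and below is not independent of that filter. The members were also chosen with earlier results of these data known. Their counts and medians beside all tested genes are therefore a description and no test of the list. The 7 had a median log2 fold change of 0.59 against capillary and 0.95 against venous cells, while over all tested genes the medians were -0.25 and -0.22. No member was called by edgeR against capillary cells, where 4 of 8767 genes (0.0456%) were called, while DESeq2 called 6.38%, limma 3.84% and edgeR on thinned counts 0.859%. At an unadjusted p under 0.05, 4 members were higher in large-artery than in capillary cells, as were 2.04% of tested genes. The same count was 4 against venous cells (3.25% of genes), and it was 4 for arterial against capillary (1.75%), 3 for arterial against venous (3.14%) and 2 for large-artery against arterial cells (7.86%). edgeR called 0% of genes for arterial against capillary and for large-artery against arterial cells and 0.0684% for arterial against venous cells, no member among them. The counts of called genes rested on each set: leaving out 1 set at a time left 0 to 1 gene called against capillary and 2 to 5 against venous cells, where the full fit called 35.

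**Figure D5:**
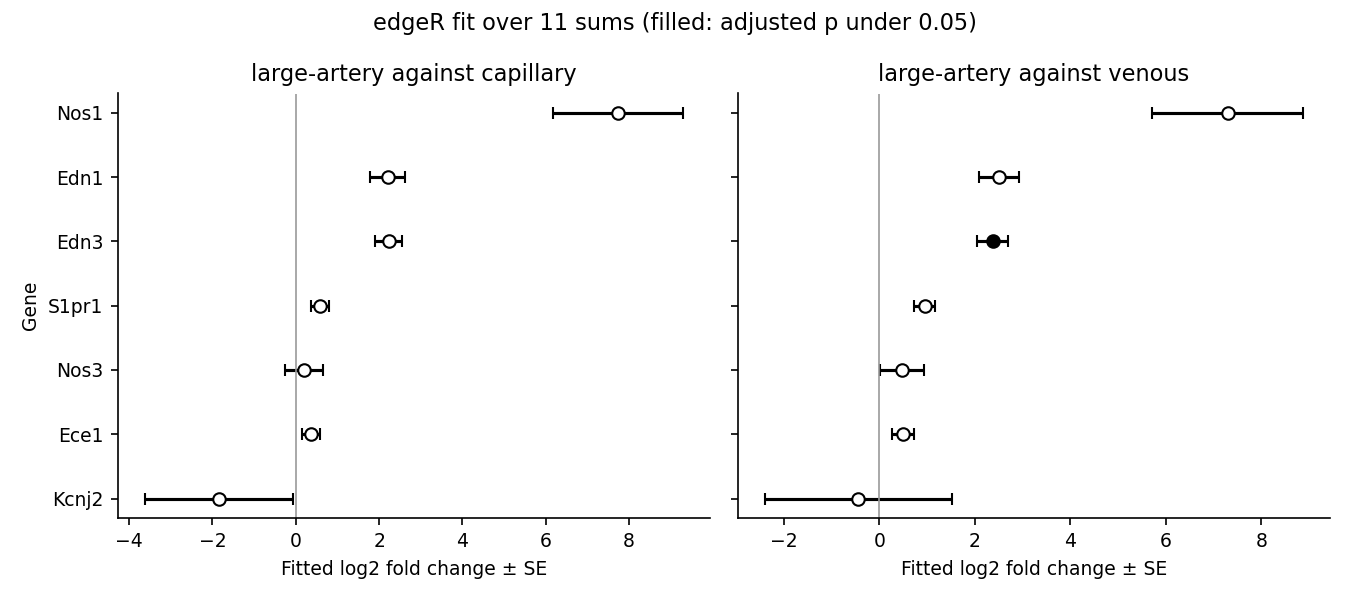
log2 fold change (x axis) of the 7 members tested (y axis), from the edgeR fit of 11 sums of counts. Large-artery cells are set against capillary cells (left) and venous cells (right). Bars are the standard error derived from the F statistic. Filled points passed an adjusted p of 0.05, which only Edn3 against venous cells did (2.38 ± 0.33); Nos1 has the largest fold change and the widest error of the genes higher in large-artery cells.

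Large-artery-only cells, which lack a positive arterial pair, were above capillary cells for 6 members, at levels that were not always those of the large-artery class. Over sets, Edn1 was at 631 CPM in them against 1144 in large-artery cells, Edn3 at 265 against 456 and Ptgis at 61.8 against 146.05. Nos1 was at 141.1, 743 and 242.2 CPM in Young1, Young2 and AY_Y3, above every capillary value. Nos3 was at 288, 507 and 261.4 CPM and S1pr1 at 1934, 1623 and 1954 CPM, also above every capillary mean. With Edn1, Edn3 and Ptgis, 6 members stood above capillary cells without overlap, 5 of them among the tested genes, of which 6.43% did so. Between venous and capillary cells, 2 of the 7 tested members, Nos3 and S1pr1, were lower in venous cells without overlap, as were 7.13% of tested genes. No gene was called there by edgeR (0%), while 1.9% of genes but no member had an unadjusted p under 0.05, DESeq2 called 0.97% and limma 0.285%.

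The genes most like each member across the 633 cells were ranked by Pearson's r of log2(CPM + 1), averaged over the 3 sets, among the 9385 genes found in 5% of cells. Points are cells that share libraries and depth, so r is a description. Nos1 was most like Fbln5 (0.62), Mgp (0.60), the secreted chaperone Clu (0.58), Tmem100 (0.53) and the lymphangiogenic factor Vegfc (0.52). Ptgis was most like Fbln5 (0.43), Nos1 (0.37) and Pi16 (0.36). Edn1 was most like Mgp (0.30), Prune2 (0.27), Eps8l2 (0.25) and Nos1 (0.24). Ednrb, found in 11 cells, was most like Ssu2 (0.31) and Car7 (0.31), the latter at -0.02 in Young2. For the remaining members the highest r was 0.29 for Edn3, with the protease Prss23, and 0.22 for S1pr1, with Cdk19. It was 0.21 for Kcnj2, with Uso1, 0.20 for Nos3, with Clic4, and 0.20 for Ece1, with Myl12b. Gm15587, whose exons overlap those of Nos3, came at rank 3 for Nos3 (0.19).

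A wider set of genes of the same paths was followed for context, of which 74 passed the filters of the test. None of 3 cyclic GMP, 8 prostanoid, 10 sphingosine 1-phosphate, 15 potassium channel and membrane potential, 11 vasoactive receptor and peptide and 8 flow response genes tested was called, and of the endothelin list none passed the filter. Against capillary cells, 8 of the 74 were higher and 7 lower in large-artery cells at an unadjusted edgeR p under 0.05. Without overlap between sets, 15 were higher and 13 lower. Of all 8767 tested genes, 2.04% were higher at that p and 6.17% were higher without overlap. Those lower were 377 and 1171 of the 8767 in the same order. The median log2 fold change of the 74 was -0.03, against -0.25 over all tested genes. limma on the mean log2(CPM + 1) called 13 of the 74 higher and 2 lower in that contrast, beside 279 higher and 58 lower of all 8767 tested genes.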

How the data were processed

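The authors deposited raw counts per gene symbol and cell; no molecular identifiers are mentioned in the labels. Per the submitters' processing notes, Bowtie 0.12.2 and the builds mm8 and mm10 were used, with no role given; the counter, annotation and strand setting were not given in the sources used here. From the deposited counts, CPM per cell, shares of cells and marker classes were computed with Python 3.11.15, pandas 2.3.3 and scipy 1.17.1. Counts were summed per set and class of at least 5 cells, giving 11 sums rather than the 12 planned, and fitted with edgeR 4.0.16 in R 4.3.3 (TMM, quasi-likelihood test, set as block, 5 residual degrees of freedom, Benjamini-Hochberg threshold 0.05). Genes needed to pass edgeR's filterByExpr and have a count in 5% of cells. The 8 marker genes were not tested. DESeq2 1.42.0 and limma 3.58.1 (pseudocount 1) were alternatives. The set named in the cell titles was the replicate, and every class was drawn from the same sets. The test was checked on simulated counts. All members were described; of the wider lists, the rule names genes called, at most 6 per contrast, and 1 result under it is not reported here. The members and lists were chosen with earlier results of these data known. The 2 large-artery contrasts against capillary and venous cells were added after class sizes were seen.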

Additional observations from a re-analysis of the deposited data

How the results depend on the processing

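Direction held in most refits of the members: of the log2 fold changes recomputed, 443 kept direction and side of the threshold, 49 newly passed it, 7 lost it (all Edn3 in large-artery against venous cells) and 62 changed sign, all for members not called in that contrast; the causes were not tested. No alternative took Nos1, Edn1 or Edn3 to a lower level in large-artery than in capillary or venous cells. All alternatives were run; those with summed classes were chosen after seeing the data.

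The share of tested genes called, in percent, is given for arterial against capillary, venous against capillary, arterial against venous and large-artery against arterial, capillary and venous cells in that order, first as reported: 0%, 0%, 0.0684%, 0%, 0.0456% and 0.399%. DESeq2 called 12.5%, 0.97%, 14.2%, 11.5%, 6.38% and 7.84%, and limma on mean log2(CPM + 1) 0.445%, 0.285%, 2.98%, 0.0684%, 3.84% and 5.12%. Without the replicate block, the fit that ignores the pairing by set called 0.319%, 0%, 1.65%, 0.855%, 0.183% and 1.02%. Leaving out 1 set called 0% to 0%, 0% to 0.0115%, 0% to 0.0346%, 0% to 0%, 0% to 0.0112% and 0.023% to 0.0558%. A pair limit of 20 CPM called 0.034%, 0.0227%, 0.533%, 0.0113%, 0.125% and 0.908%, and one of 500 CPM 0.0119%, 0%, 0.0119%, 0%, 0.0356% and 0.0474%. Wider segment lists called 0.496%, 0%, 0.822%, 0%, 1.24% and 1.16%. Leaving out no well called 0.0222%, 0%, 0.732%, 0.0222%, 0.211% and 0.644%, and leaving wells out from 500 CPM of other markers 0%, 0%, 0.0574%, 0%, 0.0229% and 0.298%. Thinned counts called 0.159%, 0.0661%, 1.27%, 0%, 0.859% and 1.79%. No filter on low counts, with more genes tested, called 0%, 0%, 0.0312%, 0%, 0.026% and 0.161%. Summing arterial with large-artery cells called 0.159%, 0% and 0.716% in the contrasts it allows.

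The log2 fold changes that changed sign are named by class pair. For Nos1 in venous against capillary cells (0.45 as reported), the value was -2.22 with the 500 CPM pair limit, -3.88 with wells left out from 500 CPM, and -0.72 to 1.05 with 1 set left out. For Nos3 in venous against capillary cells (-0.27), limma gave 0.33. For Nos3 in arterial against capillary cells (0.21), the 500 CPM limit gave -0.11 and leaving out 1 set -0.41 to 0.46. For Nos3 in arterial against venous cells (0.48), limma gave -0.28 and leaving out 1 set -0.20 to 0.85. For Nos3 in large-artery against arterial cells (-0.0017), limma gave 1.58, either pair limit 0.37, wells from 500 CPM 0.32, wider lists 0.034, thinning 0.12, no filter 0.041 and leaving out 1 set -0.56 to 0.34. For Nos3 in large-artery against capillary cells (0.21), leaving out 1 set gave -0.10 to 0.77, including -0.09. For Edn1 in venous against capillary cells (-0.31), limma gave 0.18 and wider lists 0.36, and in arterial against capillary cells (1.46) the 500 CPM limit gave -0.15. For Edn3 in venous against capillary cells (-0.15), limma gave 0.83, the 500 CPM limit 0.24, the 20 CPM limit 0.069, wider lists 1.07 and thinning 0.024. For Edn3 in large-artery against arterial cells (0.55), limma gave -0.47, the 20 CPM limit -0.12 and wells from 500 CPM -0.060. For Ece1 in arterial against capillary cells (-0.44), limma gave 0.54 and summed classes 0.32. For Ece1 in venous against capillary cells (-0.13), limma gave 0.38, the 500 CPM limit 0.062 and no well left out 0.064. For Ece1 in arterial against venous cells (-0.31), limma gave 0.16, thinning 0.018, summed classes 0.45 and leaving out 1 set -0.76 to 0.15. For S1pr1 in large-artery against arterial cells (-0.19), the 500 CPM limit gave 0.019, the 20 CPM limit 0.20 and wider lists 0.20. For Kcnj2 in arterial against capillary cells (-1.37), limma gave 0.39, the 20 CPM limit 0.62, wider lists 1.01 and leaving out 1 set -2.47 to 0.023. For Kcnj2 in venous against capillary cells (-1.40), wider lists gave 0.53. For Kcnj2 in arterial against venous cells (0.033), no filter gave -0.051, summed classes -0.14 and leaving out 1 set -1.45 to 1.38. For Kcnj2 in large-artery against arterial cells (-0.47), the 500 CPM limit gave 0.55, wells from 500 CPM 0.94 and leaving out 1 set -1.36 to 0.15. For Kcnj2 in large-artery against capillary cells (-1.84), limma gave 0.24 and wells from 500 CPM 0.94. For Kcnj2 in large-artery against venous cells (-0.44), limma gave 0.24, the 500 CPM limit 8.81, the 20 CPM limit 1.32, wells from 500 CPM 8.11, the fit without the replicate block 0.53 and leaving out 1 set -2.80 to 1.54, including 0.67.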
